A study of Mus musculus with 38 samples.

Results

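Sites of phosphorylated CREB in mouse liver that lay at no site of total CREB made up 3170 of the 7669 sites listed for fed liver (41.3%, 95% Wilson interval 40.2 to 42.4%) and 3187 of the 6812 sites listed for liver fasted for 24 h (46.8%, 45.6 to 48.0%). They were chosen by measured overlap: a site was a member when it shared no base with any site of the CREB lists of fed or fasted liver, and each phospho-CREB list was kept apart. The 2 lists together held 6357 such sites, beside 302614 regions in all 13 lists of the series. The numbers of members are therefore a description of these lists and were not tested.

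Chromatin immunoprecipitation with sequencing had been done on liver of C57BL/6 mice, either fed ad libitum or fasted, and on hepatocytes isolated from C57BL/6 mice. The liver CREB and phospho-CREB groups, fed and fasted for 24 h, had 3 samples each, and the name of each such list gives 2 of these libraries. The H3K27ac groups of fed, 10 h fasted and 24 h fasted liver also had 3 samples each, and the names of their lists speak of pooled libraries. Hepatocytes were untreated (CREB, 1 sample), given 10 nM glucagon for 1 h (CREB, 2 samples), or given 10 nM glucagon with 1.7 uM corticosterone for 1 h (CREB and GR, 2 samples each). A further 2 lists carry names for phospho-CREB in primary hepatocytes, untreated and with glucagon. Their library numbers match none of the samples, so what they hold is known from the list name alone and only their positions were used. The CREB antibody was clone 48H2, and the phospho-CREB antibody was directed at serine 133. The labels do not state the age and sex of the animals. Whole liver holds several cell types besides hepatocytes, and no RNA was measured here against which the labelled tissue could be checked. Each list gives 1 row per site and no value per library. The spread between replicates is therefore unknown, and what follows compares lists, not replicated conditions.

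CREB is a transcription factor that binds cAMP response elements in DNA. Glucagon, the hormone released in fasting, raises cAMP in hepatocytes and activates protein kinase A, which phosphorylates CREB at serine 133, and the phosphorylated form recruits the acetyltransferases CBP and p300. H3K27ac, acetylation of histone H3 at lysine 27, is a mark of active promoters and enhancers, and GR, the glucocorticoid receptor, binds DNA in response to corticosterone, another hormone of fasting.

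Phospho-CREB sites without CREB were weak and narrow sites of their lists. Each list gives a tag density for every site, the highest number of sequenced tags on a scale that the sources used here do not give, so that densities can be compared within a list only. In the fed list the members had a median density of 3.41 (interquartile range 2.75 to 3.84), against 10.9 for the 4499 sites at a CREB site and 4.69 for the whole list. Members of the fasted list had a median density of 3.11 (2.72 to 3.89), against 9.33 for the 3625 sites at a CREB site and 4.28 for the whole list. The interquartile ranges of the 2 classes did not overlap in either list, since the lower quartile at CREB was 5.07 in fed and 4.28 in fasted liver. The phospho-CREB values are given as a description, because the same lists chose the members.

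By rank, the median member stood at place 5645.5 of 7669 in the fed list and at place 4815 of 6812 in the fasted list, counted from the densest site. The densest decile of the fed list held 2 members among 766 sites (0.261%, 0.0716 to 0.947%), and the densest decile of the fasted list held 10 among 681 (1.47%, 0.800 to 2.68%). From there the share climbed to 32.9% in the fifth decile and 59.1% in the sixth of the fed list, and to 53.2% and 62.7% in the fasted list. The weakest decile consisted of members to 81.9% in the fed and 82.8% in the fasted list. The upper 50% of the list by density held 368 fed members (11.6% of members) and 3466 of the sites at CREB (77.0%). For the fasted list these were 633 members (19.9%) and 2773 sites at CREB (76.5%).

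**Figure D1:**
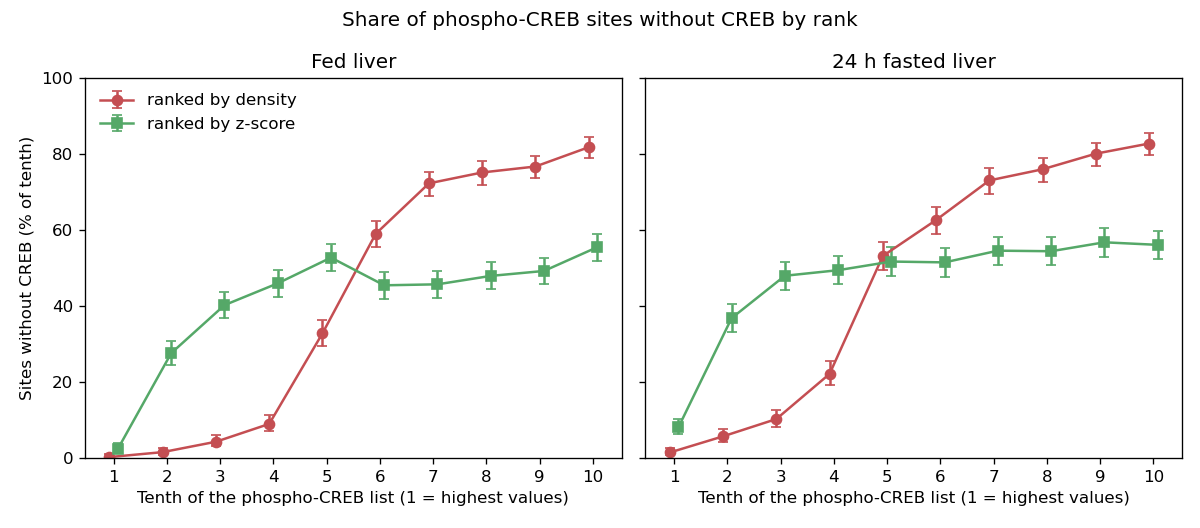
Share of phospho-CREB sites without CREB (y axis, % of sites) in each decile of the fed and the fasted list (x axis, 1 = highest values), ranked by tag density (circles) or by z-score (squares), with 95% Wilson intervals as bars. By density the share climbs from 0.261% to 81.9% in fed and from 1.47% to 82.8% in fasted liver, and by z-score the first decile stands apart from the others.

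The z-score, the peak caller's own score of enrichment, separated the classes less than the density did. Its median was 14.5 for fed members against 18.4 at CREB, and 15.4 for fasted members against 19.2 at CREB. By z-score, members made up 2.48% of the first decile of the fed list, 27.6% of the second and 55.5% of the last. In the fasted list these shares were 8.08%, 36.9% and 56.2%. The upper 50% by z-score held 40.9% of the fed and 41.5% of the fasted members, against 56.4% and 57.5% of the sites at CREB. The median member was at place 4458.5 of the fed and 3938 of the fasted list by z-score, nearer the middle of the list than by density.

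Members were also narrower. The median width was 336 bp for fed members against 508 bp at CREB, and 338 bp for fasted members against 481 bp at CREB, where the narrowest site of every list was 252 bp. Sites under 300 bp made up 38.6% of fed members and 15.0% of fed sites at CREB, and 37.8% and 16.2% in the fasted list. Sites over 600 bp made up 4.04% of fed members against 35.5% at CREB, and 4.74% of fasted members against 30.4%. Only 8 fed and 16 fasted members were wider than 1000 bp.

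Member densities also sat on few values. In the fed list the 3170 members had 114 distinct densities, and 82.6% of them were a whole multiple of 0.426 within a tolerance of 0.01. The same held for 49.9% of the fed sites at CREB. The 3187 fasted members had 157 distinct densities with a step of 0.389, and 78.6% of members against 54.7% of sites at CREB were whole multiples. Each step was taken from the 5 commonest densities of the members, so the comparison with sites at CREB favours members by construction. Those 5 values alone held 66.3% of fed members and 17.2% of fed sites at CREB. In the fasted list they held 59.7% and 18.3%. The commonest density was 2.98 among fed members, at 566 sites, and 3.11 among fasted members, at 499 sites. What one step stands for is not stated in the sources used here. These low, stepped values are visible as vertical lines in the plot of density against width.

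**Figure D2:**
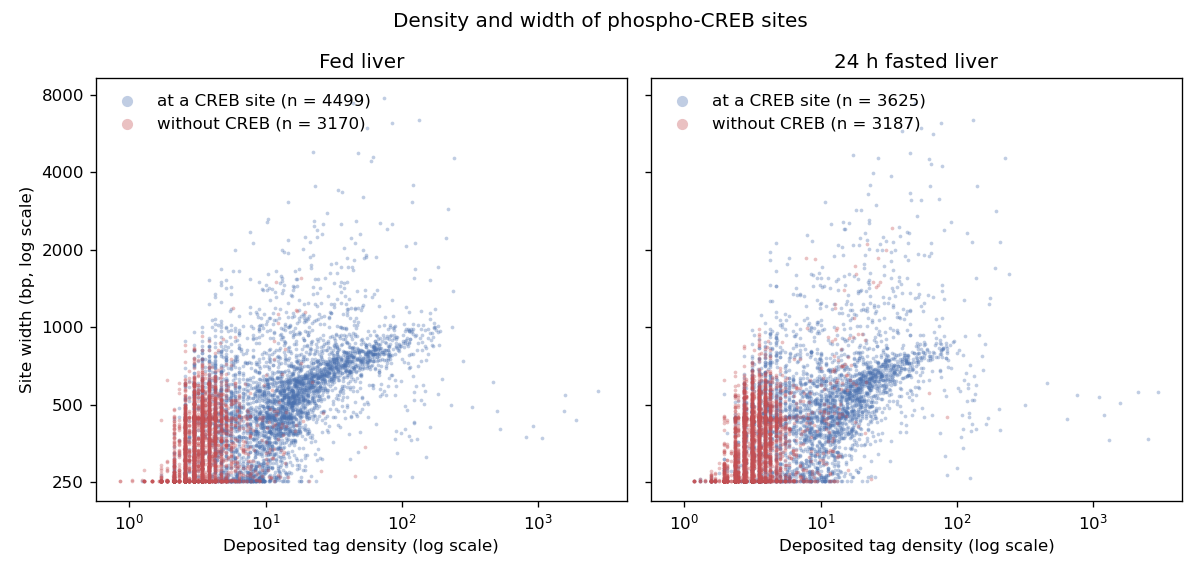
Tag density as deposited (x axis, log scale, scaling not stated) against site width (y axis, bp, log scale) for every site of the fed and the fasted phospho-CREB list, coloured by whether it lay at a CREB site. Sites without CREB crowd at low densities in steps, with medians of 3.41 and 3.11, and sites at CREB spread to higher density and width.

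Most members lay far from CREB. The median member lay 43.0 kb from the nearest CREB site in fed and 40.9 kb in fasted liver, and 2220 fed and 2228 fasted members lay more than 10000 bp away. Just inside the rule, 118 members of each list had a gap of at most 250 bp to a CREB site, with median densities of 3.84 in fed and 3.50 in fasted liver. Just outside it, 40 fed and 49 fasted sites shared at most 100 bp with a CREB site, with median densities of 3.41 and 3.24. Sites on both sides of the edge were thus alike in density, and closer to the members than to the typical site at CREB. In other lists the members near CREB differed from distant ones. With a gap of at most 250 bp, 15.3% of fed and 15.3% of fasted members lay in 10 h fasted H3K27ac. Beyond 10000 bp these shares were 3.96% and 3.82%. For the other phospho-CREB list they were 22.9% and 22.0% near CREB, and 8.33% and 8.35% far from it. Some members border on CREB directly: chr5:41526004-41526450 of the fasted list (mm9, as are all positions here) has a gap of 0 bp, and chr10:124893708-124894237 of the fed list has a gap of 1 bp.

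H3K27ac was rare at members, and the 3 acetylation lists play no part in the rule. In the fed list 23 members (0.726%, 0.484 to 1.09%) lay in an H3K27ac region of fed liver, where 18.8% of all fed phospho-CREB sites and 31.5% of those at CREB did. In the 24 h fasted H3K27ac list these were 28 fed members (0.883%, 0.612 to 1.27%), against 20.1% of the whole phospho-CREB list and 33.6% at CREB. The 10 h fasted H3K27ac list, with 47777 regions the longest of the 3, held 198 fed members (6.25%, 5.46 to 7.14%), against 39.7% of the whole list and 63.3% at CREB.

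The fasted phospho-CREB list gave much the same picture. Its members numbered 31 in fed H3K27ac (0.973%, 0.686 to 1.38%), beside 12.1% of the whole list and 21.8% at CREB. In 24 h fasted H3K27ac they numbered 34 (1.07%, 0.764 to 1.49%), beside 13.1% and 23.7%. In 10 h fasted H3K27ac they numbered 198 (6.21%, 5.43 to 7.10%), beside 34.1% and 58.7%. With the 10 h list reduced to its 10488 densest regions, it held 0.631% of fed and 1.07% of fasted members. In each of these 6 comparisons the interval of the members lay below that of the sites at CREB. The intervals cover counting error only, neighbouring sites are not independent, and with 1 list per group no test between conditions could be made.

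Acetylated members were mostly in the 10 h list alone: 170 of 202 acetylated fed members and 165 of 202 fasted ones lay in no other H3K27ac list, while 17 fed and 26 fasted members lay in all 3. Among acetylated sites at CREB the 10 h list alone held 1370 of 2914 in the fed and 1290 of 2172 in the fasted list, and all 3 held 1348 and 741. The 10 h regions that held members were narrow and low in density, though not in z-score. The 194 regions at fed members had a median width of 419 bp and a median density of 3.46, against 699 bp and 11.5 for the whole 10 h list. For the 188 regions at fasted members these were 412 bp and 3.27. Their median z-scores, 23.3 at fed and 22.4 at fasted members, were above the 18.0 of that list. The 10 h regions that met sites at CREB had 28.7 (fed) and 23.6 (fasted). By contrast, the 29 regions of the 24 h list at fasted members had a median width of 1885 bp and a median density of 35.9, against 798 bp and 14.5 for that list. The 27 regions at fed members were wide as well, with a median of 1265 bp, but nearer the list in density, with 18.9 and with 51.9% of them in its upper 50%. Over all sites, the nearest 24 h H3K27ac region was a median of 148.6 kb from a fed member and 12.6 kb from a fed site at CREB. Overlapping sites count here as a distance of 0 kb, so these medians also reflect the shares above. In the fasted list these distances were 130.2 and 24.6 kb.

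GR sites of hepatocytes given both hormones touched 182 fed members (5.74%, 4.98 to 6.61%), beside 14.6% of the whole fed list and 20.8% of its sites at CREB. They touched 176 fasted members (5.52%, 4.78 to 6.37%), beside 15% of the whole fasted list and 23.4% at CREB. The ratio of the share at CREB to the share of members was smaller for GR than for the H3K27ac lists. Of these members, 148 of 182 in the fed list and 132 of 176 in the fasted list lay in no H3K27ac region. Among sites at CREB, those at GR without H3K27ac were 223 of 934 in the fed and 208 of 848 in the fasted list. The GR sites at members were low in density, with medians of 2.60 (fed) and 3.03 (fasted) against 3.77 for the 11892 GR sites in all. Their median z-scores, 17.1 and 16.6, were above the 12.96 of that list. GR sites that met sites at CREB had similar z-scores, 17.4 and 17.6, but densities of 6.72 and 6.71.

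CREB of isolated hepatocytes, another measure of total CREB that the rule did not use, was found at few members. The untreated list touched 238 fed members (7.51%, 6.64 to 8.48%), beside 26% of the whole fed list and 39.1% at CREB. The glucagon list touched 75 (2.37%, 1.89 to 2.96%), beside 22.3% and 36.4%. The list for glucagon with corticosterone touched 92 (2.90%, 2.37 to 3.55%), beside 22.2% and 35.8%. For the fasted list the untreated cells gave 221 members (6.93%, 6.10 to 7.87%), beside 17.1% of the whole list and 26.1% at CREB. Glucagon gave 82 (2.57%, 2.08 to 3.18%), beside 13.4% and 22.8%, and both hormones gave 113 (3.55%, 2.96 to 4.25%), beside 13.4% and 22.1%.

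Members at hepatocyte CREB seldom met it in every treatment. Any of the 3 hepatocyte CREB lists held 309 fed members (9.75%), and all 3 held 29 (0.915%). For the fed sites at CREB these shares were 43.4% and 32.5%, and for the whole fed list 29.5% and 19.5%. Of the fasted members, 315 (9.88%) lay in any and 33 (1.04%) in all 3, against 31.0% and 18.6% at CREB and 21.1% and 10.4% of the whole fasted list. The untreated list, which rests on 1 sample and has 47596 sites, accounted for 188 fed (5.93%) and 168 fasted members (5.27%) found in no other hepatocyte CREB list. Sites at CREB did not exceed these shares, with 4.401% in the fed and 5.21% in the fasted list. Untreated CREB sites at members had a median density of 3.20 in both cases, against 9.61 for that list and 93.5 where it met fed sites at CREB. By z-score their medians, 15.8 (fed) and 15.0 (fasted), were above the 14.1 of that list. They were far below the 133.8 (fed) and 148.3 (fasted) where that list met sites at CREB. The sites with both hormones were closer to their list in density, with medians of 10.1 (fed) and 11.2 (fasted) against 11.4. With each list reduced to its 10488 densest regions, untreated CREB lay at 10 fed (0.316%) and 7 fasted members (0.220%). Glucagon CREB then lay at 12 (0.379%) and 10 (0.314%), and CREB with both hormones at 26 (0.820%) and 31 (0.973%). Untreated CREB thus no longer held the most members, while its counts and those of glucagon CREB differed little.

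The lists named for phospho-CREB in primary hepatocytes also held few members. The untreated one touched 27 fed members (0.852%, 0.586 to 1.24%), beside 4.54% of the whole list and 7.13% at CREB, and 33 fasted members (1.04%, 0.738 to 1.45%), beside 4.21% and 7.01%. The one named for glucagon touched 39 fed members (1.23%, 0.901 to 1.68%), beside 20% and 33.2%, and 35 fasted members (1.10%, 0.791 to 1.52%), beside 11.4% and 20.4%. Going from the untreated to the glucagon list, the share at CREB was larger in both feeding states, while the intervals of the members overlapped. The glucagon list was also longer, with 13560 sites over 9.63 Mb against 10488 sites over 4.38 Mb. These shares were not adjusted for that.

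**Figure D3:**
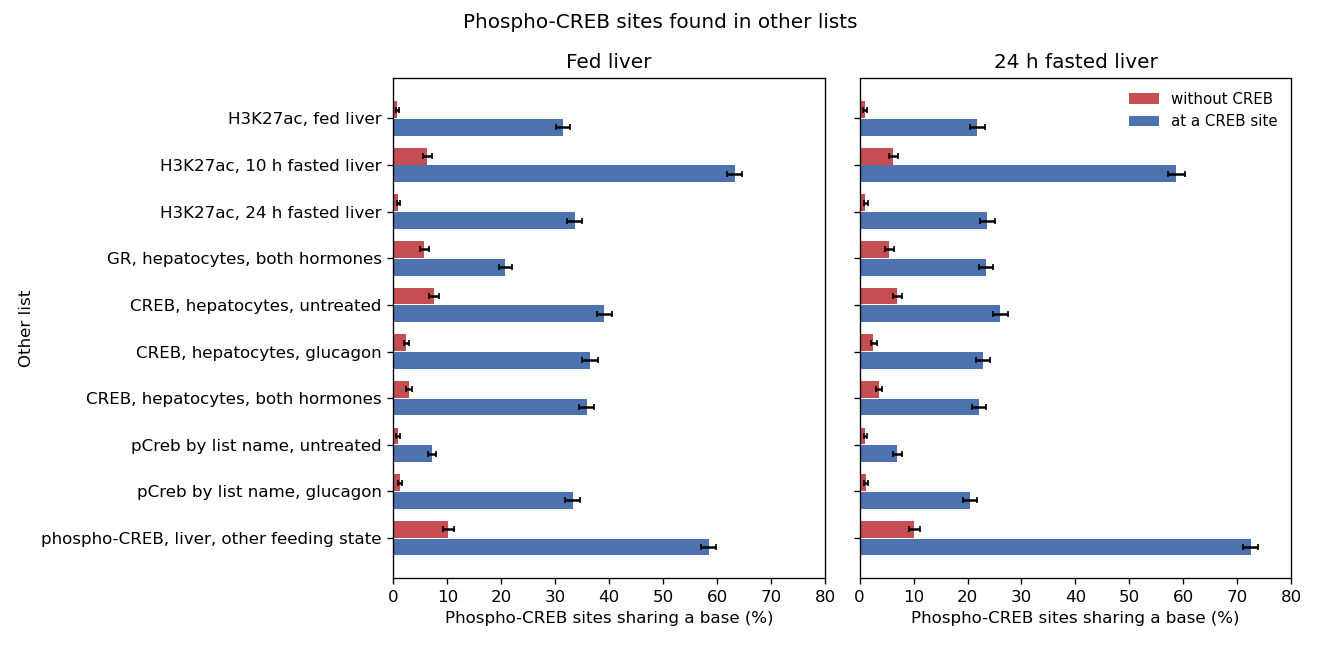
Share of phospho-CREB sites (x axis, %) that share a base with each of 9 other lists and with the phospho-CREB list of the other feeding state, for sites without CREB (red) and at a CREB site (blue), with 95% Wilson intervals. In all 10 pairs of bars of both panels the sites without CREB have the shorter bar, with the longest at the other phospho-CREB list (10.2% and 10.1%).

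Most members were found in nothing else. In the fed list 2591 of 3170 members (81.7%, 80.4 to 83.0%) lay in none of the 9 other lists. So did 1033 of the 4499 sites at CREB (23.0%). In the fasted list these were 2630 of 3187 members (82.5%, 81.2 to 83.8%) and 1033 of 3625 sites at CREB (28.5%). The 2 classes make up the whole of each list, so lying in none was not particular to members. Leaving out also the members found in the phospho-CREB list of the other feeding state left 2381 fed (75.1%) and 2415 fasted members (75.8%). The same step left 583 fed (12.96%) and 582 fasted sites at CREB (16.1%). Another 430 fed and 400 fasted members lay in exactly 1 of the 9 lists (13.6% and 12.6%), against 1011 and 961 sites at CREB (22.5% and 26.5%). Untreated hepatocyte CREB was most often that list (150 and 142), followed by 10 h H3K27ac (119 and 106) and GR (97 and 80). The share in untreated hepatocyte CREB alone was higher among members, at 4.73% and 4.46%, than at CREB, at 1.58% and 1.60%. For 10 h H3K27ac alone the order was the opposite, with 3.75% and 3.33% of members against 16.5% and 19.6%. At the other end, 31 fed and 35 fasted members lay in 5 or more lists (0.978% and 1.10%), against 1396 and 693 sites at CREB (31.0% and 19.1%). No member lay in all 9 lists, and few sites at CREB did (0.533% and 0.248%).

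Few members were listed in both feeding states: 322 fed members (10.2%, 9.15 to 11.3%) met a site of the fasted phospho-CREB list, beside 38.5% of all fed sites and 58.4% of those at CREB. Likewise 323 fasted members (10.1%, 9.13 to 11.2%) met a fed site, beside 43.3% of all fasted sites and 72.5% at CREB. Of these, 307 fed members lay at a fasted site that was a member too and 15 only at a fasted site at CREB. For the fasted members these numbers were 309 and 14. Without replicates, sites found in 1 list cannot be told apart from sites near the limit of detection in both.

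Members listed in both feeding states were no denser than the rest in fed liver, with a median of 3.41 in each class, and little denser in fasted liver, with 3.50 against 3.11. They were wider, with medians of 393.5 against 331 bp (fed) and 395 against 333 bp (fasted). They were also more often in other lists. A GR site lay at 11.5% of the fed members in both states (37 of 322) and at 5.09% of the others (145 of 2848), and a 10 h H3K27ac region at 17.7% and 4.95%. In the fasted list the GR shares were 10.5% (34 of 323) and 4.96% (142 of 2864), and the 10 h H3K27ac shares 16.4% and 5.06%.

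Because members were weak, the shares were also taken within the upper and lower 50% of each list by density, a split added after the data had been seen. Sites without CREB stayed below sites at CREB in every one of these lists and in both parts, but the gap was not the same. In the upper 50% of the fed list, 24 h H3K27ac held 6.25% of 368 members and 43.2% of 3466 sites at CREB, and in the lower 50% it held 0.178% of 2802 members and 1.45% of 1033 sites at CREB. For GR the upper 50% gave 10.3% and 22.9%, and the lower 50% gave 5.14% and 13.6%. In the fasted list 24 h H3K27ac held 4.74% of 633 members and 30.5% of 2773 sites at CREB in the upper 50%, and 0.157% and 1.64% in the lower. The fasted GR shares were 11.5% and 27.1% in the upper and 4.03% and 11.3% in the lower 50%. The dense members were thus more often acetylated and at GR than the weak members. They were less often so than sites at CREB in the same 50% of the list. The same order held for the other phospho-CREB list, with 16.8% of dense and 9.28% of weak fed members against 64.1% and 39.5% at CREB. Density still differed between the classes within each 50%, as 252 of the 368 dense fed members lay in the fifth decile. There 24 h H3K27ac held 1.59% of members and 4.66% of sites at CREB, and GR held 7.54% and 26.0%. In the third decile of the fed list 24 h H3K27ac held 24.2% and 42.8%. In the eighth the order turned for 24 h H3K27ac, with 2 of 577 members against 0 of 190 sites at CREB.

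**Figure D4:**
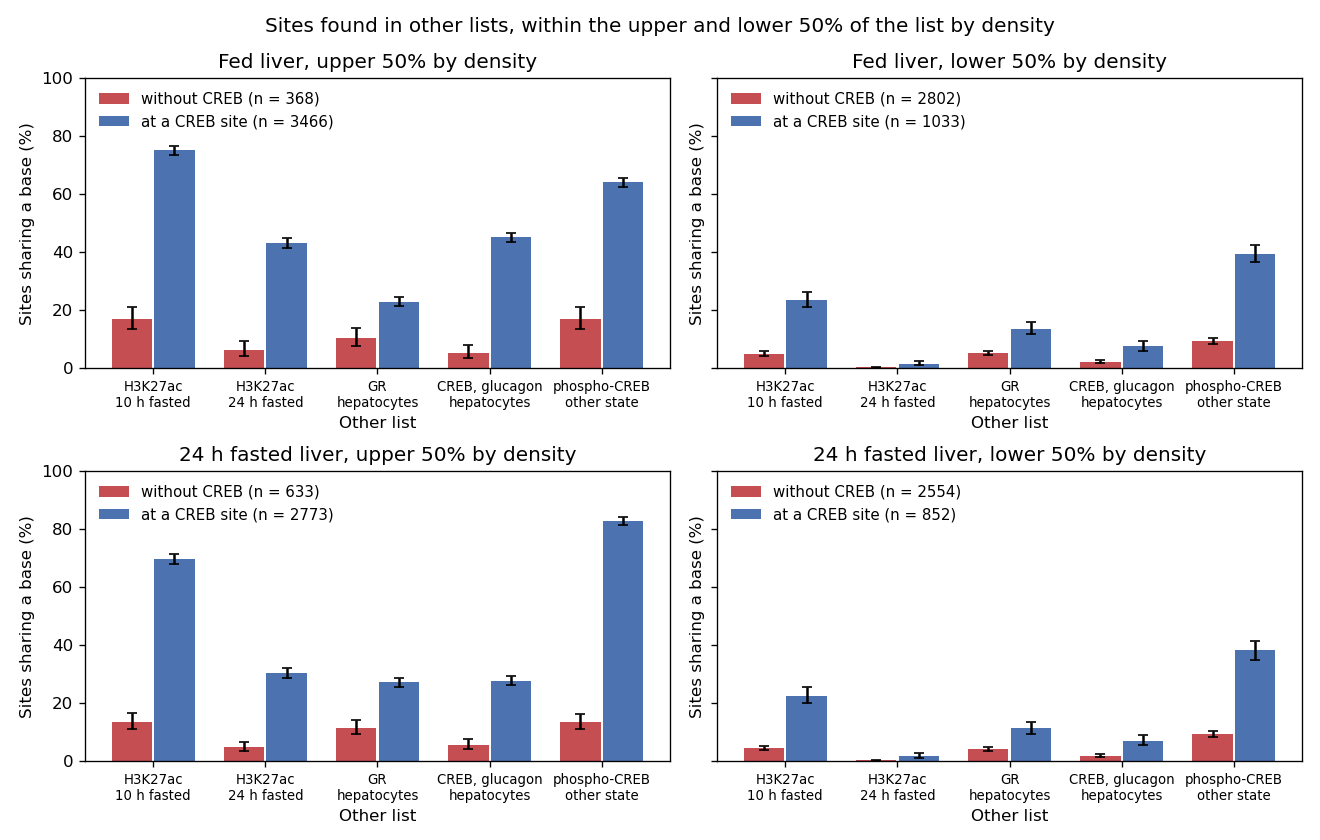
Share of phospho-CREB sites (y axis, %) found in 5 other lists (x axis), for sites without CREB (red) and at CREB (blue), in the upper and lower 50% of the fed list (top) and the fasted list (bottom) by density, with 95% Wilson intervals. In all 4 panels the red bar is the shorter of each pair, as for 24 h H3K27ac in the upper 50% of the fed list (6.25% against 43.2%). Density was not matched within each 50% of a list.

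Widths were also compared band by band, again after the data had been seen. Among fed members under 300 bp wide, 0.817% lay in 24 h H3K27ac and 4.90% at GR, against 14.8% and 12.6% of the equally narrow sites at CREB. Among fasted members over 1000 bp wide, which number 16, 43.8% lay in 24 h H3K27ac, 43.8% at GR and 56.2% at CREB of hepatocytes with both hormones. For the 243 fasted sites at CREB of that width the shares were 44.4%, 62.1% and 18.1%. The wide members thus exceeded sites at CREB of that width for doubly treated hepatocyte CREB, the reverse of the order over the whole list. The order was also reversed for glucagon CREB (50% against 19.3%), untreated CREB (43.8% against 22.6%) and the list named for glucagon phospho-CREB (31.2% against 13.6%). Among the 8 fed members of that width it was reversed for untreated CREB (62.5% against 30.7%), both hormones (37.5% against 25.2%) and the list named for glucagon phospho-CREB (25% against 23.4%), and not for glucagon CREB (12.5% against 30.3%). The wide members are few, and the interval of the 56.2% runs from 33.2 to 76.9%.

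The leading members by density differ from one another. The densest fed member, chr16:21282068-21282409, had a density of 53.7, a z-score of 46.3 and place 356 in its list. It met the densest fasted member, chr16:21282149-21282597, with a density of 84.4, a z-score of 81.7 and place 70. This pair lay in none of the 9 other lists, and the nearest CREB site was 59689 bp from the fed and 59501 bp from the fasted site. The densest member of both feeding states thus lay in no H3K27ac region and at no hepatocyte site of these lists.

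Chr17:63086596-63087148, the second densest fasted member with a density of 62.0 at place 133 of its list, also lay in none of the 9 lists, was not listed in fed liver and had its nearest CREB site 653349 bp away. The second densest fed member was chr11:3048049-3048313, at place 450 of its list, with a density of 45.4 but a z-score of only 10.1. It lay in H3K27ac regions of all 3 liver groups, with densities of 76.9 in fed, 72.1 in 10 h fasted and 100.9 in 24 h fasted liver, and was not listed in fasted phospho-CREB. A CREB site lay 703 bp away. Of the 5 densest fed members, 3 lay in none of the 9 lists and 3 met a fasted phospho-CREB site, and of the 5 densest fasted members 3 lay in none and 2 met a fed site.

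The third densest fasted member, chr16:22898740-22901159, was also the widest at 2420 bp. Its density was 33.2 and its z-score 35.7, and its fed counterpart, chr16:22899364-22900915, was the widest fed member at 1552 bp with a density of 18.3. The fasted site lay in H3K27ac of 10 h and 24 h fasted liver but not of fed liver, at a GR site, in all 3 hepatocyte CREB lists and in the list named for glucagon phospho-CREB. The GR site there, chr16:22899383-22902047, had a density of 45.2, among the top 1.47% of the GR list. The CREB region of hepatocytes with both hormones, chr16:22898227-22902048, had a density of 44.6, against 13.96 in the untreated and 11.02 in the glucagon list, each on its own scale. The nearest liver CREB site lay 18735 bp away.

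Other wide fasted members shared parts of this pattern. The 5 widest ran from 1851 to 2420 bp, and all 5 lay in an H3K27ac region and at a hepatocyte CREB site, while 4 lay at a GR site. Chr14:41926007-41928117, 2111 bp wide with a density of 22.0, lay in all 3 H3K27ac lists, at GR and in all 3 hepatocyte CREB lists. Chr9:46037608-46039605, 1998 bp wide with a density of 30.3, lay in all 3 H3K27ac and all 3 hepatocyte CREB lists but at no GR site. Chr2:32268456-32270306, 1851 bp wide with a density of 26.3, lay in 10 h and 24 h H3K27ac, at GR and in both hormone-treated CREB lists, and not in fed H3K27ac or untreated CREB. None of these 3 was listed in fed phospho-CREB. Chr8:3047327-3049190, 1864 bp wide, had a density of only 7.78 and met a region of the list with both hormones that reached a z-score of 1310.

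Neighbouring members on chromosome 4, from the phospho-CREB lists of both feeding states, lay at GR sites of hepatocytes given both hormones. The fed members chr4:150243608-150244332 (density 18.1) and chr4:150241423-150241990 (density 11.1) both lay at GR sites and at CREB of hepatocytes with both hormones, 750 and 560 bp from a liver CREB site. Both met 1 fasted site, chr4:150240672-150244649, 3978 bp wide with a density of 24.2, which is itself at a CREB site and so no member. The fasted member chr4:150236424-150238156, 1733 bp wide with a density of 17.9, lay nearby at another GR site, 1334 bp from a liver CREB site. Among the 5 densest fed members at GR, all 5 also met a fasted phospho-CREB site and a hepatocyte CREB site, and 2 lay in H3K27ac.

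A few members without liver CREB met dense CREB regions of hepatocytes. Chr10:121176582-121176833 of the fed list, 252 bp wide, had a density of 20.6, at place 1163, and a z-score of 8.997. By z-score it stood at place 7655 of 7669, near the lowest value in the list, 8.98. It met CREB regions with densities of 86.0 in untreated, 66.6 in glucagon and 80.3 in doubly treated hepatocytes, within the top 4.87% of each list. No liver CREB site lay within 23116 bp of it, it was not listed in fasted phospho-CREB, and it lay in no H3K27ac region. Chr12:72145970-72146304, with a density of 12.97, likewise lay in all 3 hepatocyte CREB lists and in addition in all 3 H3K27ac lists. Its z-score was also low, 9.27 at place 7404.

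Members were spread over all 21 chromosomes, with a lower share on X and Y. On X, 246 of 986 fed sites (24.9%, 22.3 to 27.7%) and 238 of 956 fasted sites (24.9%) were members, and on Y 10 of 126 (7.94%) and 7 of 120 (5.83%). The 19 autosomes ran from 36.7% (chromosome 11) to 55.4% (chromosome 14) in the fed list and from 36.0% (chromosome 5) to 62.3% (chromosome 12) in the fasted list. Phospho-CREB sites in general were denser on X, with a median of 10.2 in fed and 9.72 in fasted liver, while the members there had 3.41 and 3.11, as in the whole list of members. Members were also isolated: the nearest site of the same list was a median of 93.2 kb away in fed and 100.4 kb in fasted liver, against 18.8 and 6.17 kb for sites at CREB.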

How the data were processed

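Hotspot lists of 11 groups were matched to samples through library numbers in their names, and 2 lists, with 8 value columns, matched none, so that only their positions were used. Per the submitters' processing notes, CASAVA 1.8 and genome build mm9 were used. The aligner and caller settings were not given in the sources used here. Per the file headers, the authors' values for each site are tag densities (a signal) and a z-score (a score). The deposited signal has no stated scaling and the read depth is unknown, so it was used only within a list. Sites were taken as deposited, with both ends inside, and met when they shared at least 1 base. Ties in density were ordered by z-score. No test was run, and the 95% Wilson intervals of shares cover only counting error.

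The members and lists were chosen with earlier results of these data known. Named sites were, in each phospho-CREB list, the 5 densest members, the 5 densest in the other phospho-CREB list, in H3K27ac, at GR and in all 3 hepatocyte CREB lists, the 5 widest, and 3 on each side of the rule's edge. Those with the highest values are given in the text. Overlap counts were tested on simulated lists with known answers. The gene and promoter tables at hand are of another build, so no gene or sequence is given. Liver GR and C/EBPb samples were not analysed here. Overlaps were computed in Python 3.11.15 with pandas 2.3.3 and numpy 2.4.6, intervals with SciPy 1.17.1, and plots with matplotlib 3.10.9.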

Additional observations from a re-analysis of the deposited data

How the results depend on the processing

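For the share of members, the shares in 4 leading lists (same-state H3K27ac, GR, glucagon CREB and the list named for glucagon phospho-CREB) and the share in the other phospho-CREB list of each feeding state, 44 of 88 values from alternatives stayed within the main 95% interval and 44 moved out of it. Values are given as fed, then fasted. The share of members in the list was 38.3% and 43.7% with no CREB site within 500 bp, 48.7% and 53.0% with the CREB list of the same feeding state alone, 9.60% and 18.6% in the upper 50% of the list by density, and, added after the data were seen, 73.1% and 74.99% in the lower 50%. Counting shared stretches under 50% as none gave 48.1% in fasted liver. When at least 50% of the shorter site had to be shared, GR held 4.23% and 3.99% of members, glucagon hepatocyte CREB 1.77% and 2.01%, and the other phospho-CREB list 9.09% and 9.04%. With a gap of up to 500 bp, GR held 8.99% and 9.16%, glucagon CREB 4.16% and 4.24%, same-state H3K27ac 1.20% and 1.51%, and the list named for glucagon phospho-CREB 1.63% in fasted liver. With same-state CREB alone, GR held 6.72% and 6.49%. Among the upper 50% of members by density, GR held 6.69% and 7.66%, glucagon CREB 2.97% and 3.52%, same-state H3K27ac 1.26% and 2.01%, and glucagon phospho-CREB 1.77% and 1.82%. With the other list reduced to the shortest length of 10488 regions, GR held 4.73% and 4.77%, glucagon CREB 0.379% and 0.314%, and fed H3K27ac 0.252% of fed members. Untreated CREB then held 0.316% and 0.220%, against 7.51% and 6.93% before, and no longer the most members of the 3 hepatocyte CREB lists. Members in the lower 50% of the list by density, also added later, gave 0.107% and 0.157% for same-state H3K27ac, 0.642% and 0.392% for glucagon phospho-CREB, and, in fasted liver, 4.03% for GR and 1.84% for glucagon CREB. Lists of equal length gave 8.38% of fasted members in the fed phospho-CREB list. Of 100 values for the remaining results, 62 stayed within the main interval and 38 moved. The alternatives were computed for members only, so they do not say whether the order between members and sites at CREB would hold under each. All 10 with 500 bp windows and all 16 without chromosomes X and Y stayed. Reducing the other list was not run for the 2 lists matched to no sample, since their densities were not used. No paired analysis was possible because the lists give no value per library, and leaving out replicates could not be run for the same reason. Depth is unknown, so a site missing from a list may lie below its limit of detection.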
